A study of Mus musculus with 12 samples.

Results

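Gene expression was compared between the extensor digitorum longus (EDL), a fast-twitch glycolytic muscle of the mouse hind limb, and myotubes of the C2C12 mouse cell line grown in culture. The comparison used 6 of the 12 one-colour arrays of the study, 3 of EDL and 3 of myotubes, chosen by their sample labels. Each EDL sample was the total RNA of the muscles of both hind limbs of 1 male CD1 mouse aged 3 months, homogenized whole. C2C12 is an immortalized myoblast line, so the cultured samples share a single cellular origin. Its myoblasts had been brought to 90% confluence and then given medium with 2% horse serum, and the myotubes were collected 96 hours later. They were enriched by detachment with dilute trypsin and replating in proliferation medium for 30 minutes, after which the floating cells were kept. The labels give no innervation, co-culture or electrical stimulation for the cultures, and do not say whether the 3 cultures were grown separately, so the p-values describe the spread among these arrays, which may be technical. The remaining arrays were 3 of C2C12 myoblasts at about 50% confluence and 3 of soleus muscles of like mice. Their levels are given only to place a level beside that of the compared groups. They were also in the fit, where they share in the estimates of spread and slide, and so in every SE and adjusted p.

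Skeletal muscle fibres form when myoblasts leave the cell cycle and fuse into myotubes under the basic helix-loop-helix factors MyoD and myogenin. The first contractile proteins, ion channels and acetylcholine receptor subunits made are embryonic, cardiac or slow forms. After birth, under the influence of the motor nerve, load and hormones, fast fibres replace many of these with adult forms encoded by other genes. A muscle also holds capillaries, fibroblasts, tendon cells, nerve sheath, macrophages, fat and blood, none of which a clonal myotube culture contains, so a gene can be higher in EDL RNA because fibres express it or because another cell type does.

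Levels are log2 signals scaled to each array's 75th percentile, and differences are EDL minus myotube on the log2 scale, so 1 is a doubling. Errors are the SD over 3 arrays for a level and the standard error (SE) of the fit for a difference. The arrays lay on 3 slides, each with 1 array of every group, and the slide was a block in the fit. EDL arrays correlated with each other at r of 0.974 to 0.985 over probes, myotube arrays at 0.981 to 0.989, and EDL with myotube arrays at 0.872 to 0.888, with probes not being independent replicates. Each group held a fixed position on the slides, and an effect of position cannot be told apart from that of the group. The 75th percentile of the signal was 1018 to 1230 on myotube arrays and 466 to 595 on EDL arrays, while the spike-in control RNA gave mean log2 signals of 13.77 to 14.21 and 13.68 to 14.16. Scaling to the spike-ins instead lowered every difference by a constant (-0.94, or 1.92-fold), so a difference between 0 and 0.94 below changes sign under that scaling and a larger one does not. The highest level on any array was 19.70 to 19.87 for EDL and 18.61 to 18.80 for myotubes, no spot carried the saturation flag, and the mean levels of 10 of the 13 fast contractile genes in EDL lay within 1 of the array's highest.

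Of 17713 genes tested, 5050 (28.5%) were called higher in EDL and 3724 (21.0%) lower, a call being an adjusted p under 0.05 in limma's test together with a difference of at least 1 in either direction. Under spike-in scaling the calls were 2769 higher and 7752 lower, so the share of calls that were higher went from 57.6% to 26.3%; under scaling to the array median it was 40.7%. The levels of the groups did not overlap for 13924 genes (78.6%), and 8739 of the 8774 called genes had the same sign on all 3 slides. At least 8-fold differences were called for 1644 genes higher and 873 lower. The counts of each gene list below are to be read against 28.5% higher and 21.0% lower, unless another share is given. A gene entered the test when all 3 arrays of either group had its probe well above background. Of these genes 718 failed that flag on every myotube array and 571 on every EDL array, and for them a fold is given as a lower bound ("at least"). Among the 14548 genes well above background on all 6 arrays, 25.7% were called higher and 18.4% lower. The plot of all genes shows both sets over the range of signal.

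**Figure D1:**
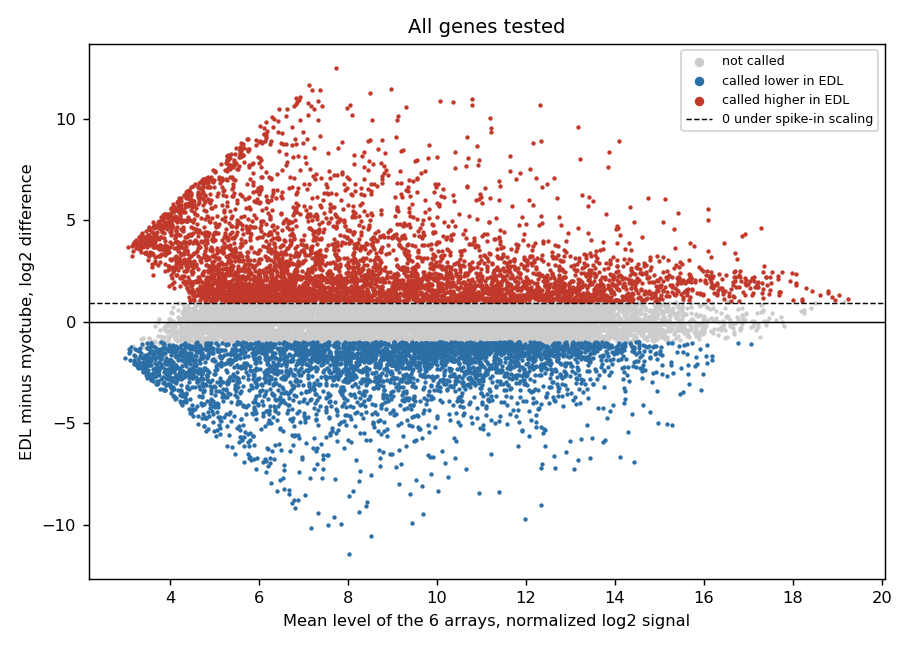
Difference between EDL and myotubes (log2, vertical axis) against the mean level of the 6 arrays (log2, horizontal axis) for all 17713 genes, coloured by call. Of these, 5050 were called higher and 3724 lower; the dashed line, 0.94 above 0, is where 0 lies under spike-in scaling.

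The labels were checked first against sex-linked and fibre genes. The EDL mice were male, and the Y-linked genes Ddx3y and Eif2s3y reached 12.17 to 12.67 and 12.21 to 12.61 on the EDL arrays. Both were below that flag on every myotube array, so each was at least 472-fold higher in EDL; Kdm5d (at least 22.1-fold) and Uty (at least 29.4-fold) went the same way. Xist, the RNA that coats the inactive X chromosome of female cells, stood at 14.02, 13.72 and 13.47 on the myotube arrays and was below background on every EDL array, at least 645-fold lower. Its myoblast level was 13.51 ± 0.31. The cultures and the mice thus differed in their sex-linked transcripts, and a difference of sex or strain cannot be told apart from one of muscle against culture at any gene. Fibre genes were high in both groups, with Acta1 at 17.67 ± 0.03 in myotubes and 19.20 ± 0.17 in EDL.

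Muscle genes with an adult form and a developmental or general form encoded by a separate gene were compared as 25 pairs. All 25 adult forms were called higher in EDL, against 28.5% of all genes; 18 were called under spike-in scaling and 20 under quantile normalization, which turned 1 negative. Of their partners 21 were called lower, 2 higher (Pfkfb3 and Cox7a2) and 2 were not called (Ckb and Slc25a5). The pairs were listed with some of these values already known, so the counts describe the pairs and do not test them. The difference of the adult form was above that of its partner in 25 of 25 pairs, here and under each of the other 5 scalings and background corrections, with the gap running from 3.09 (Acta1 over Actc1) to 13.60 (Rpl3l over Rpl3).

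The acetylcholine receptor gave the widest gap among the membrane proteins. Chrng, its fetal gamma subunit, stood at 16.65, 16.90 and 16.93 on the myotube arrays and at 6.98, 7.01 and 7.36 on the EDL arrays. All myotube arrays were high and all EDL arrays low, an 839-fold difference (-9.71, SE 0.08, adjusted p = 3.9e-11). Chrne, the adult epsilon subunit that replaces gamma, was 10.26 ± 0.23 in myotubes and 12.09, 12.46 and 12.10 in EDL (1.96, SE 0.17, adjusted p = 8.1e-06). The probe of Chrng lies on chromosome 1, 89042737 to 89042796, plus strand, and that of Chrne on chromosome 11, 70431084 to 70431143, minus strand, in the array design's coordinates (build mm8; exons were not annotated in the sources used here).

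Among contractile pairs, embryonic myosin heavy chain Myh3 was 17.70, 17.63 and 17.66 in myotubes against 13.10, 12.67 and 12.20 in EDL (-5.01, SE 0.15), and the fast adult chain Myh4 was 16.44, 16.57 and 16.52 against 19.22, 18.88 and 18.84 (2.47, SE 0.10). Cardiac troponin T (Tnnt2) was -6.67 and fast troponin T (Tnnt3) 2.42. The slow troponins Tnni1 (-5.43) and Tnnc1 (-5.94) fell while their fast counterparts Tnni2 (1.42) and Tnnc2 (1.13) rose.

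In the calcium store, the fast pump Atp2a1 (SERCA1) went from 13.23, 13.69 and 13.83 to 18.49, 18.65 and 18.64, while the slow and cardiac pump Atp2a2 (SERCA2) went from 15.96, 16.11 and 15.92 to 11.94, 11.98 and 11.81. Myotube arrays were thus high for one pump and EDL arrays for the other, and soleus arrays, from a slow muscle, were high for both (16.86 ± 0.31 and 17.99 ± 0.20). The calsequestrins that bind calcium inside the store moved alike, Casq2 by -5.78 (SE 0.06) and Casq1 by 3.22 (SE 0.08).

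All 4 partners that were not called lower belonged to metabolic pairs: Pfkfb3 (3.26, SE 0.06), a regulator of glycolysis, and the oxidase subunit Cox7a2 rose, and Ckb and the adenine nucleotide carrier Slc25a5 (-0.97, SE 0.10) were not called. The insulin-responsive glucose transporter Slc2a4 (GLUT4) was 9.09, 9.30 and 9.21 in myotubes and 17.21, 17.23 and 17.22 in EDL, 259-fold higher (8.02, SE 0.05, adjusted p = 1.7e-11), and the general transporter Slc2a1 (GLUT1) fell by 1.54 (SE 0.08). Of the muscle forms of cytochrome c oxidase subunits, Cox7a1 rose by 6.07, Cox8b by 3.87 and Cox6a2 by 3.38, while Cox6a1 (-1.12) and Cox8a (-1.17) were lower and Cox7a2 was also higher (1.59). Creatine kinase Ckm rose by 5.34 (SE 0.10), and Ckb, the brain form, was 0.76 (SE 0.20), not called and negative under spike-in scaling, with its probes disagreeing in direction.

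The translation machinery had the widest gaps of all. Rpl3l, a muscle paralog of ribosomal protein Rpl3, was 5.11, 5.48 and 5.71 in myotubes and 16.10, 16.06 and 16.21 in EDL (10.69, SE 0.17), and Rpl3 fell by 2.91 (SE 0.07). Eef1a2, the elongation factor form of adult muscle and neurons, failed the background flag on every myotube array and was 14.64, 14.84 and 14.59 in EDL, at least 2340-fold higher, while Eef1a1 fell by 2.04 (SE 0.07).

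**Figure D2:**
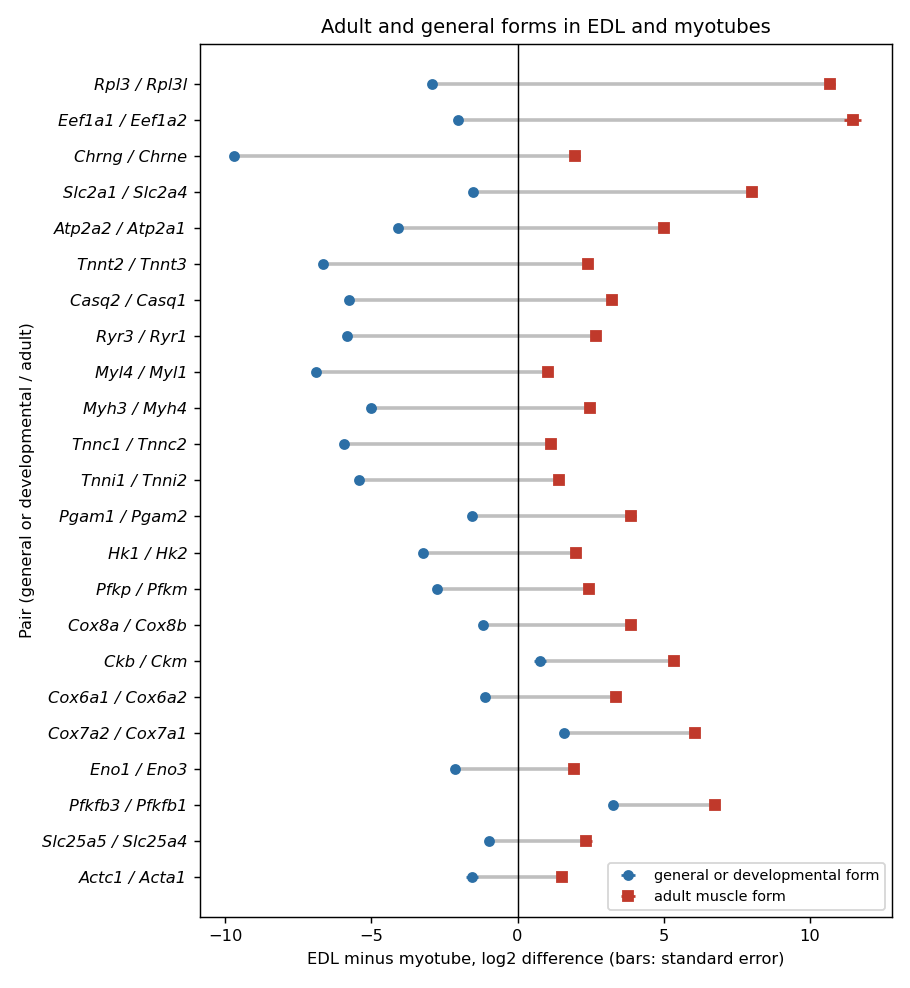
Difference between EDL and myotubes (log2, with SE bars) of the adult form (squares) and the general or developmental form (circles) of 23 of the 25 gene pairs, ordered by the gap between them. Every square lies right of its circle, and 19 of these circles are called lower.

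Since the adult forms moved together, their promoters were searched for CAGCTG, the E-box core that MyoD and myogenin bind, which reads the same on both strands. RefSeq promoters (build GRCm38.p6, 250 bases before to 50 after a start) were at hand for 20 of the 25 adult and 20 of the 25 partner genes. CAGCTG occurred in 13 of the 20 adult genes (13 of 27 promoters, 48.1%) and in 3 of the 20 partners (4 of 26 promoters, 15.4%), against 16.3% of all 32851 promoters. The motifs were chosen after the calls were known, the genes of a pair are not independent, and a match is a run of letters and not a shown binding site. TATAAA, searched on both strands, was in 5 adult and 4 partner genes, and in 13.6% of all promoters. The promoters of 5 adult forms and of Chrng, the partner with the largest fall, are shown with CAGCTG in capitals; Chrng holds it at 2 places, so its presence did not separate the receptor subunits.
Acta1 (skeletal alpha-actin, chr8:123894726-123895025, minus strand): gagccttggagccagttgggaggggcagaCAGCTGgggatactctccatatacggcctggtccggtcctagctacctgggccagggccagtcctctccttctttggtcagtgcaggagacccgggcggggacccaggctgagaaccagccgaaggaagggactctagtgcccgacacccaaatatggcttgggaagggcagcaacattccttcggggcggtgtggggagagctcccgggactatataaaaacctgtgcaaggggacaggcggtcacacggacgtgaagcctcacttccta
Ckm (muscle creatine kinase, chr7:19410844-19411143, plus strand): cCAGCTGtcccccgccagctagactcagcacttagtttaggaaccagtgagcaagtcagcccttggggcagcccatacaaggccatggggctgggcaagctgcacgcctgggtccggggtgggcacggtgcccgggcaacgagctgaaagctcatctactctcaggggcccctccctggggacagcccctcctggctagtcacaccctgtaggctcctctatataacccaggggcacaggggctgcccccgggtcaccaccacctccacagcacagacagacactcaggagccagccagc
Atp2a1 (SERCA1, chr7:126463024-126463323, minus strand): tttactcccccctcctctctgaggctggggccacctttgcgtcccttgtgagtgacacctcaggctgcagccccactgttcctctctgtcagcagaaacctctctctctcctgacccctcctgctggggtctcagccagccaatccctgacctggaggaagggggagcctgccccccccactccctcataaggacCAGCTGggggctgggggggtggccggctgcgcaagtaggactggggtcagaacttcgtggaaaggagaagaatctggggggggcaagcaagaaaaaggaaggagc
Eno3 (muscle enolase, chr11:70656926-70657225, plus strand): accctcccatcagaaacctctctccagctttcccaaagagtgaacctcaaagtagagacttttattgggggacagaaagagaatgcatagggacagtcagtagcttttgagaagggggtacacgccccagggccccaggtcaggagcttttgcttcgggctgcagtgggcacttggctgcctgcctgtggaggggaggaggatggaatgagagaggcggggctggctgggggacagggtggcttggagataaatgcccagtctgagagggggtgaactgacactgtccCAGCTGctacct
Chrne (receptor epsilon subunit, chr11:70619145-70619444, minus strand): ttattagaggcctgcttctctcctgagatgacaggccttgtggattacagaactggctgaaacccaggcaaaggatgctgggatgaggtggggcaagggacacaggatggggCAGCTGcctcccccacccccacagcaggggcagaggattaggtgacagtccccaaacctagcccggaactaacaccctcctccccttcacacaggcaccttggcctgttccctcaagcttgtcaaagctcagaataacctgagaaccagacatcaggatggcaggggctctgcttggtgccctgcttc
Chrng (receptor gamma subunit, chr1:87205561-87205860, plus strand): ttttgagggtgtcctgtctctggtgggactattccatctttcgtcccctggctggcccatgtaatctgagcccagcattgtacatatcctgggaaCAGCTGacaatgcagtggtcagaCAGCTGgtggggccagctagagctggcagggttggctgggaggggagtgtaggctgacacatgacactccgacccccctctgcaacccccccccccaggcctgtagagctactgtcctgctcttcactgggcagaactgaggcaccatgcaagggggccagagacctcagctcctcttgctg
In these sequences the first base of CAGCTG lay at -221 (Acta1), -249 (Ckm), -55 (Atp2a1), 39 (Eno3, after the start) and -138 (Chrne), and at -155 and -132 in Chrng, counted from the annotated start.

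All 13 fast contractile genes were called higher, from 1.03 (Myl1) to 4.92 (Mylk2), with a median of 1.53 against 0.16 over all genes, but 5 of the 13 were called under spike-in scaling and 5 under quantile normalization, which turned Myh1, Mylpf and Myl1 negative. The rise of this list as a whole therefore depended on how arrays were scaled. Mylk2, the kinase of fast myosin light chain, was 12.42, 12.71 and 12.76 in myotubes and 17.38, 17.60 and 17.67 in EDL. Mybpc2, fast myosin-binding protein C, rose by 4.31 (SE 0.14) and Myh2, the IIa heavy chain, by 4.23 (SE 0.11). The regulatory light chain Mylpf was already at 18.27 ± 0.07 in myotubes and 19.50 ± 0.05 in EDL (1.23, SE 0.10; -0.14 under quantile normalization). Of 13 slow and cardiac contractile genes 8 were lower and 2 higher: Mybpc1, slow myosin-binding protein C (6.16, SE 0.14), and Myl3 (1.33, SE 0.08). Slow myosin Myh7 was 16.98 ± 0.14 in myotubes and 16.36 ± 0.07 in EDL, not called, while soleus held 19.2. Of 5 developmental contractile genes Mybph (-7.24, SE 0.07), Myl4 (-6.91, SE 0.08) and Myh3 fell. Perinatal myosin Myh8 was called higher (1.52), but only 1 of its 3 probes was higher, and myosin heavy chain genes are near-identical in places, so its value is uncertain.

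Of 33 Z-disc, M-band and titin-associated genes 17 were higher, against 28.5% of all genes, and 7 were lower, near the 21.0% of all genes. Tmod4, which caps thin filaments, went from 6.55 ± 0.11 to 15.89 ± 0.09, Myoz1, a calsarcin of fast fibres, from 9.67 ± 0.13 to 18.05 ± 0.12, and Myot (myotilin) rose by 6.08 (SE 0.09). Tcap (telethonin) rose by 4.60 and titin itself (Ttn) by 2.36. The genes that fell were led by the stretch-responsive ankyrin-repeat gene Ankrd1 (-4.42, SE 0.08), Myom3 (-2.30) and Csrp3 (-1.87). Myom3, Csrp3, Ankrd2 (-1.76) and Myoz2 (-1.70) stood higher in soleus (16.66, 16.2, 16.9 and 17.5) than in either compared group. Desmin (Des, -0.72, SE 0.11) was not called.

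Of 27 genes of excitation-contraction coupling 19 were higher and 4 lower. Parvalbumin (Pvalb), the calcium buffer of fast fibres, was 8.20, 8.51 and 8.38 in myotubes and 17.91, 17.96 and 18.02 in EDL, 777-fold higher (SE 0.26, adjusted p = 6.4e-09). Sarcolipin (Sln), an inhibitor of the calcium pump, rose by 6.53 (SE 0.12), and phospholamban (Pln), another one, was below background on every myotube array (at least 9.51-fold higher). The release channel Ryr1 rose by 2.68 (SE 0.10), its voltage sensor Cacna1s by 2.05 (SE 0.07), triadin (Trdn) by 3.20 and the adaptor Stac3 by 2.24. Ryr3, the form of immature muscle, fell by 5.83 (SE 0.10) at its brightest probe, although 2 of its 6 probes were higher. Cav3 fell by 1.13.

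Of 17 membrane excitability genes 14 were higher and 3 lower. The subunits of the ATP-sensitive potassium channel, Abcc9 (7.34, SE 0.10) and Kcnj11 (6.78, SE 0.46), rose together with the potassium channel Kcnc4 (6.49, SE 0.25) and the sodium pump subunits Atp1b2 (5.83, SE 0.09) and Fxyd1 (5.71, SE 0.11). Kcnma1 was at least 17.4-fold higher. Which cells of the EDL made these transcripts was not tested. The chloride channel Clcn1 was called (2.47, SE 0.59), with an EDL SD of 1.56. The genes lower included Kcnn3 (-2.46), the small-conductance potassium channel known from non-innervated muscle.

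Of 13 neuromuscular junction genes 9 were lower and 2 higher. The receptor subunits Chrnd (-6.67, SE 0.07), Chrna1 (-4.97, SE 0.08) and Chrnb1 (-2.44, SE 0.09) fell with Chrng. The organizer kinase Musk (-4.34, SE 0.28), its co-receptor Lrp4 (-2.39), utrophin (Utrn, -2.31), the adaptor Dok7 (-1.33) and the receptor-clustering protein Rapsn (-1.27) fell as well. The exceptions were Chrne and acetylcholinesterase (Ache, 3.01, SE 0.28). In adult fibres several such transcripts are made mainly by the few nuclei under the endplate, but their site in EDL was not measured here. Fewer nuclei and less RNA per nucleus cannot be told apart in bulk RNA. Of 18 dystrophin-complex and membrane repair genes 5 rose and 4 fell, shares near the 28.5% and 21.0% of all genes, and the median was 0.35, which turned to -0.60 under spike-in scaling. The genes that rose included neuronal nitric oxide synthase Nos1 (5.99, SE 0.12), Capn3 (2.57), Dtna (2.15) and dystrophin (Dmd, 1.66), and the largest fall was integrin alpha 7 (Itga7, -3.84, SE 0.05).

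Of 24 myogenic and fibre type factors 8 were higher and 5 lower, near the shares over all genes (28.5% and 21.0%). Myogenin (Myog) was 16.52, 16.65 and 16.58 in myotubes and 9.86, 9.67 and 9.75 in EDL, 113-fold lower (SE 0.08, adjusted p = 1.2e-10), and Myf5 (-1.94) and Myod1 (-1.76) were lower too. Myf6 (MRF4), the member of the family that predominates in adult muscle, was 8.52, 8.78 and 8.81 against 13.55, 13.62 and 13.68 (4.92, SE 0.11). Sox6, a repressor of slow fibre genes, was 2.08, 3.39 and 2.67 in myotubes, where 1 of 3 arrays was well above background, and 13.56, 13.27 and 13.31 in EDL (10.66, SE 0.53). The homeodomain factor Six2 was at least 31.2-fold higher, Barx2 rose by 5.58 and Nfatc1 by 2.93, while Tead4 (-5.17, SE 0.09) and Id2 (-1.86) fell. The other 11 factors were not called, and the median was 0.78, which became -0.16 under spike-in scaling.

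Of 12 fusion and adhesion genes 7 were lower and 1 higher (Boc, 1.1). Mymk (myomaker), the membrane protein needed for myoblast fusion, was 14.60, 15.03 and 14.96 in myotubes and 8.33, 9.92 and 8.04 in EDL (-6.10, SE 0.32). Ncam1 fell by 5.45 at its brightest probe, with 1 of 8 probes higher, and the cadherins Cdh2 (-5.37, SE 0.17) and Cdh15 (-3.47, SE 0.05) and the dysferlin relative Myof (-4.86, SE 0.07) fell. In myoblasts Mymk stood at 10.08 ± 0.25 and Myog at 12.66 ± 0.08, between the myotube and EDL levels.

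**Figure D3:**
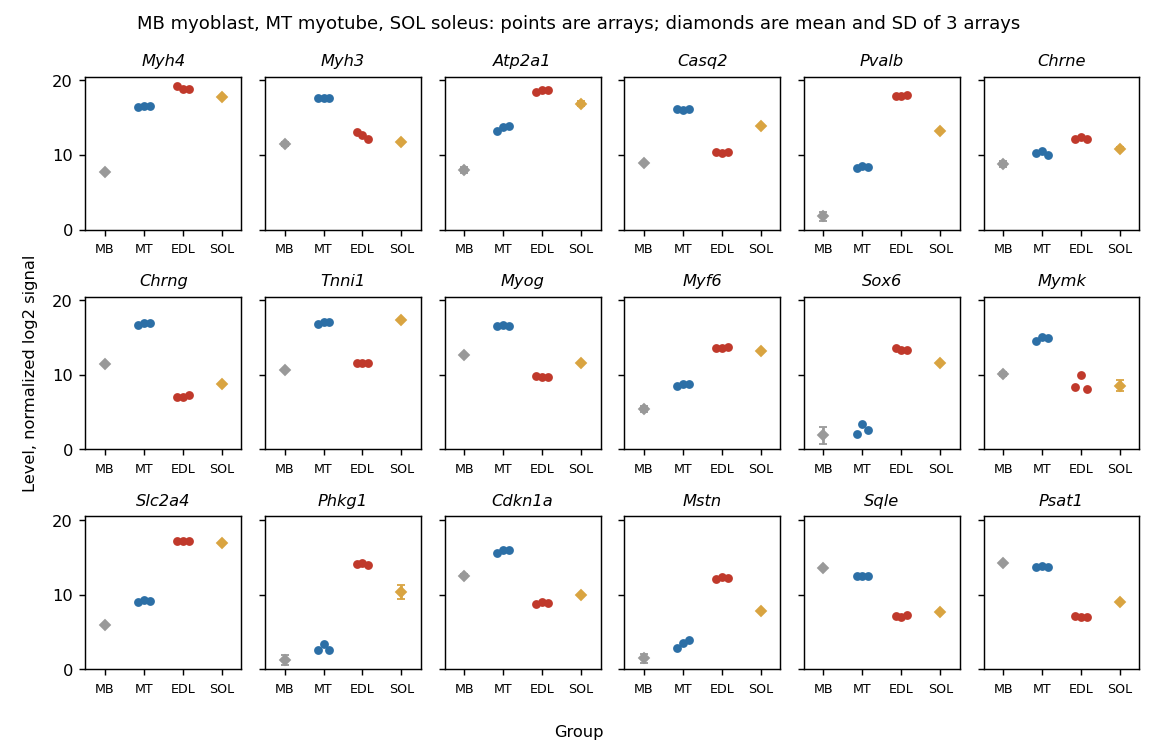
Levels (normalized log2 signal, vertical axis) of 18 genes in myoblasts (MB), myotubes (MT), EDL and soleus (SOL); points are single arrays, diamonds are the mean and SD of 3 arrays. Chrng, Myog and Mymk peak in myotubes, and Pvalb, Sox6, Phkg1 and Mstn are high only in muscle among these 4 groups.

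Of 13 genes of energy buffering and the purine cycle 9 were higher and 2 lower. Mitochondrial creatine kinase Ckmt2 rose by 8.88 (SE 0.14), AMP deaminase Ampd1 by 6.23 (SE 0.13), carbonic anhydrase Car3 by 4.39 and myoglobin (Mb) by 2.77. The creatine-synthesis enzyme Gatm (-2.91) and the non-muscle deaminase Ampd3 (-2.60) fell. Of 35 genes of glucose, glycogen and glycolysis 29 were higher, 6 lower and none uncalled. Phkg1, the catalytic subunit of muscle phosphorylase kinase, had the largest difference: it was 2.57, 3.39 and 2.63 in myotubes (1 array well above background) and 14.18, 14.24 and 13.98 in EDL (11.27, SE 0.48), and muscle phosphorylase Pygm rose by 4.64 (SE 0.06). Ppp1r1a, an inhibitor subunit of protein phosphatase 1, rose by 9.09 (SE 0.16) and the glycerol-3-phosphate dehydrogenase Gpd1 by 7.61 (SE 0.07). The glycolytic chain itself rose less, Gapdh by 1.93, Ldha by 2.10 and Aldoa by 1.31, from myotube levels of 16.35 or more. The 6 that fell were Hk1 (-3.23), Pfkp (-2.76), Eno1 (-2.13), Pgam1 (-1.57), Slc2a1 (-1.54) and Pfkl (-1.40), all forms common outside muscle.

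Of 23 Kelch, ASB and ubiquitin ligase genes 16 were higher and 1 lower (Klhl30, -2.15). Members of the ASB family of cullin adaptors rose most, Asb11 by 7.58 (SE 0.13) and Asb4 by 6.80 (SE 0.15). Asb10 (4.85, 8.49 and 4.75 in myotubes) and Asb12 (8.50, 4.81 and 4.80) were called as well, although 1 myotube array of each stood far above the others. The atrophy ligases Fbxo32 and Trim63 rose by 2.57 (SE 0.10) and 1.33 (SE 0.08).

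Of 29 cell division genes 19 were lower in EDL and 2 higher, but 7 of the 29 were below background on every EDL array and could enter only through myotubes. Over the 20 genes above background on all 6 arrays 11 were lower and 2 higher, against 18.4% and 25.7% of all such genes. Cdk1, the mitotic kinase, was 7.58 ± 0.16 in myotubes, 13.4 in myoblasts and not above background in EDL (at least 9.08-fold lower). Cenpe (-2.87, SE 0.13), Kif20a (-2.53) and Cdt1 (-2.47) fell. Against the rest of the list, the mitotic kinase Aurka was 9.53, 9.62 and 9.51 in myotubes and 12.77, 12.71 and 12.62 in EDL (3.15, SE 0.07), with soleus at 9.05 ± 0.16, so EDL stood above both, and cyclin Ccnd1 rose by 2.38 (SE 0.09). The cell cycle inhibitors split. Cdkn1a (p21), induced as myoblasts differentiate, was 15.64, 15.95 and 15.98 in myotubes and 8.77, 8.98 and 8.84 in EDL (-6.99, SE 0.08), and Ccnd3 fell by 3.99. Cdkn1c (p57) was 7.62, 7.87 and 7.61 against 12.36, 12.68 and 12.77 (4.90, SE 0.09), and the pocket protein Rbl2 rose by 2.22. Of 18 ribosome biogenesis genes 4 were lower, near the 21.0% of all genes, 1 was higher and 13 were not called. Under spike-in scaling 12 of them were called lower and none higher, against 7752 lower and 2769 higher of all 17713 genes. Myc was lowest (-3.83, SE 0.18).

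Of 23 genes of cholesterol synthesis and uptake 17 were called lower and none higher, against 21.0% and 28.5% of all genes, and the median was -2.42. Squalene epoxidase Sqle was 12.52, 12.48 and 12.55 in myotubes and 7.09, 6.96 and 7.28 in EDL (-5.41, SE 0.06), and Cyp51 (-5.13, SE 0.09) and the regulator Srebf2 (-3.02) fell too. The other 6 were not called, among them Pmvk (-0.06, SE 0.08). For Sqle, myoblasts stood above the myotube level (13.63 ± 0.07) and soleus near the EDL level (7.64 ± 0.11).

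Of 21 genes of the amino acid response and serine synthesis 11 were lower and 2 higher. The serine pathway enzymes Psat1 (13.72, 13.81 and 13.75 in myotubes; 7.12, 7.03 and 7.02 in EDL) and Phgdh (-5.18, SE 0.07), asparagine synthetase Asns (14.49, 14.64 and 14.59; 9.23, 9.20 and 9.27), the folate enzyme Mthfd2 (-3.76) and the amino acid transporter Slc7a5 (-4.74, SE 0.19) fell. Their activator Atf4 (-0.51, SE 0.05) was not called. Chac1, a glutathione-degrading target of the same response, went the other way, from 12.22, 12.65 and 12.41 to 14.63, 14.84 and 14.71 (2.30, SE 0.06), and Cth rose by 2.27 (SE 0.08). Promoters were at hand for 19 of the 22 listed genes. TGATGNAA, the core of the element bound by ATF4 with C/EBP factors, was found on either strand in 7 of them (Asns, Atf3, Chac1, Nupr1, Pck2, Slc7a11 and Trib3; 31.8% of 22 promoters), against 4.0% of all promoters, and this search too was made with the calls known. Of those 7, Asns, Atf3 (-2.43), Nupr1 (-2.12) and Trib3 (-1.06) fell, Pck2 (-0.91) was not called, Slc7a11 was not kept and Chac1 rose. The promoters of a gene that fell far, one that fell little and the one that rose are shown with the match in capitals; the match of Asns is on the strand printed and those of Trib3 and Chac1 are on the other strand, with another base at N.
Asns (chr6:7693160-7693459, minus strand): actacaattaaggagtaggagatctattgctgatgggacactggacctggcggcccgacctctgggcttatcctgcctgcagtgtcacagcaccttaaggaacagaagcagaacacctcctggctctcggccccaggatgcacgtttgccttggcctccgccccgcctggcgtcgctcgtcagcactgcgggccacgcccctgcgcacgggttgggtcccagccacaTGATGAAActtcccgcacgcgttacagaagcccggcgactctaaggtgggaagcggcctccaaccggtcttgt
Trib3 (chr2:152344011-152344310, minus strand): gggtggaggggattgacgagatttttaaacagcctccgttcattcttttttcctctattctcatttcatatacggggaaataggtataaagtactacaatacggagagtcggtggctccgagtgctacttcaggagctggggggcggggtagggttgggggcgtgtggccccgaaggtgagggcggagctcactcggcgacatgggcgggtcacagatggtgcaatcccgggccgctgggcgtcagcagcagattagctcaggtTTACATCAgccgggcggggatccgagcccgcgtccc
Chac1 (chr2:119350992-119351291, plus strand): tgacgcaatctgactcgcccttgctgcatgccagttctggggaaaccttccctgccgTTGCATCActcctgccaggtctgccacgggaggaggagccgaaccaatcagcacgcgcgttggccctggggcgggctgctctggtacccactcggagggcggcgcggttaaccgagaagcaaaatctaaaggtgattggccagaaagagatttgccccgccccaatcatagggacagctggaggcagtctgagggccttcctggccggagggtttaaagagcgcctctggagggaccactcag
The first base of the motif lay at -23 (Asns), 15 (Trib3) and -193 (Chac1) from the annotated start.

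Of 16 endoplasmic reticulum chaperone genes 8 were lower and none higher, with Pdia6 (-1.99) and Creld2 (-1.91) lowest and Hspa5 (BiP) at -1.04 (SE 0.08). Of 17 heat shock genes 4 were higher and 4 lower, near the shares over all genes (28.5% and 21.0%). Under spike-in scaling 1 of them was called higher and 10 lower, against 2769 and 7752 of all 17713 genes. The small heat shock gene Hspb6, abundant in muscle, rose by 6.94 (SE 0.08), while Hsp90aa1 (-2.35), Hspb1 (-1.76) and Dnaja1 (-1.64) fell.

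Of 26 genes of the non-muscle cytoskeleton and adhesion 16 were lower and 1 higher. Thrombospondin Thbs1 was 11.94, 12.30 and 12.33 in myotubes and 5.76, 5.74 and 5.58 in EDL (-6.50, SE 0.18), and calponin Cnn3 (-3.77), the myosin light chain Myl12a (-3.52) and vimentin (Vim, -2.56) fell. The exception was caveolin Cav1, at 10.12, 10.18 and 10.18 in myotubes and 15.36, 15.29 and 15.37 in EDL (5.18, SE 0.06); it is abundant in endothelium and fat, but myoblasts also held 14.22 ± 0.06. Of 22 immediate early genes, which respond within minutes to serum or handling, 16 were lower and 1 higher. Socs3 was 16.04, 16.10 and 16.12 against 11.71, 11.67 and 11.75 (-4.38, SE 0.07), and Egr3 (-4.16), Junb (-3.39), Egr1 (-3.05) and Fos (-2.87, SE 0.13) fell. Nr4a1 rose from 14.34, 14.40 and 14.39 to 16.52, 16.50 and 16.55 (2.15, SE 0.08), with soleus at 14.80 ± 0.19. The myotubes had been trypsinized and held in proliferation medium before lysis and the muscles had not, so handling and tissue cannot be told apart.

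Clock genes were mostly higher in EDL. Of 18 genes 11 were called higher and 2 lower, the latter being the activator Arntl (Bmal1, -1.48, SE 0.07) and the repressor Nfil3 (-1.77, SE 0.08). The output factor Dbp was 10.06, 10.56 and 10.60 in myotubes and 14.96, 15.17 and 15.32 in EDL (4.75, SE 0.07). Per3 rose by 3.74, Ciart by 3.24, Per2 by 2.91 and Nr1d1 by 1.5. Clock itself was -0.99 (SE 0.07) and not called. Soleus arrays were near EDL for Dbp (15.47 ± 0.19). The E-box CACGTG was in 5 of the 16 clock genes with a promoter (28.6% of 21 promoters, against 7.2% of all), among them Per1 (2.28), Tef (1.31) and Ciart, which rose, and Cry1 (-0.41) and Bhlhe41 (0.22, negative under spike-in scaling), which were not called. CACGTG was also in 4 of the 16 cholesterol genes with a promoter (21.1% of 19 promoters), a list with no gene called higher. This search too was made with the calls known. Hour of collection is not given in the labels.

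Growth factor genes showed opposed members. Of 21 genes of the insulin-like growth factor system and imprinted growth control 9 rose and 6 fell, against 28.5% and 21.0% of all genes. The median of 0.80 became -0.14 under spike-in scaling, where 6 were called higher and 8 lower. Of the imprinted RNAs, H19 was 16.83, 16.59 and 16.63 in myotubes and 12.66, 12.53 and 12.55 in EDL (-4.10, SE 0.09), and Meg3 was 4.12, 3.86 and 4.06 against 12.07, 12.35 and 12.28 (8.22, SE 0.15). Grb10 rose by 5.65, Igfbp3 by 5.30 and Igf1 by 2.58 (SE 0.06), and the fetal RNA-binding proteins Igf2bp2 (-4.13) and Igf2bp1 (at least 4.87-fold) fell. Of 14 genes of the transforming growth factor family 8 were lower, against 21.0% of all genes, and 4 higher, near the 28.5% of all genes. Myostatin (Mstn), which restrains muscle growth, was 2.93, 3.49 and 3.90 in myotubes, where 2 of 3 arrays were well above background, and 12.13, 12.40 and 12.28 in EDL (8.83, SE 0.26), with soleus at 7.80 ± 0.17. Its antagonist follistatin (Fst) was 12.87, 13.71 and 13.16 against 7.20, 7.72 and 7.67 (-5.72, SE 0.17). Activin subunit Inhba (-5.18, SE 0.06) and Gdf5 (-4.57, SE 0.23) fell.

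Of 22 collagen and matrix genes 11 were higher, against 28.5% of all genes, and 5 lower, near the 21.0% of all genes. Under spike-in scaling 11 were called higher and 8 lower. Col1a1 was 11.05, 11.34 and 11.20 in myotubes and 15.55, 15.64 and 15.52 in EDL (4.38, SE 0.06), and Col4a1 (3.00), Col6a2 (2.97), Eln (2.95) and Col3a1 (2.63) rose. Lysyl oxidase (Lox, -4.04, SE 0.09), fibronectin (Fn1, -3.89, SE 0.16), Col5a2 (-2.37) and Col5a1 (-1.94) fell. Myoblasts stood above myotubes for Col1a1 (13.13 ± 0.14). Of 15 kept genes of body position 8 were higher and none lower, but over the 11 above background on all 6 arrays 4 were higher, against 25.7% of all such genes. Members not above background on any myotube array were Hoxd8 (at least 19.4-fold) and the hind limb factor Pitx1 (at least 8.23-fold). Of 11 antigen presentation genes 9 were higher and none lower, from 1.97 for H2-K1 (SE 0.07) to 6.58 for the immunoproteasome subunit Psmb8 (SE 0.20); of the 5 above background on all 6 arrays 3 were higher.

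**Figure D4:**
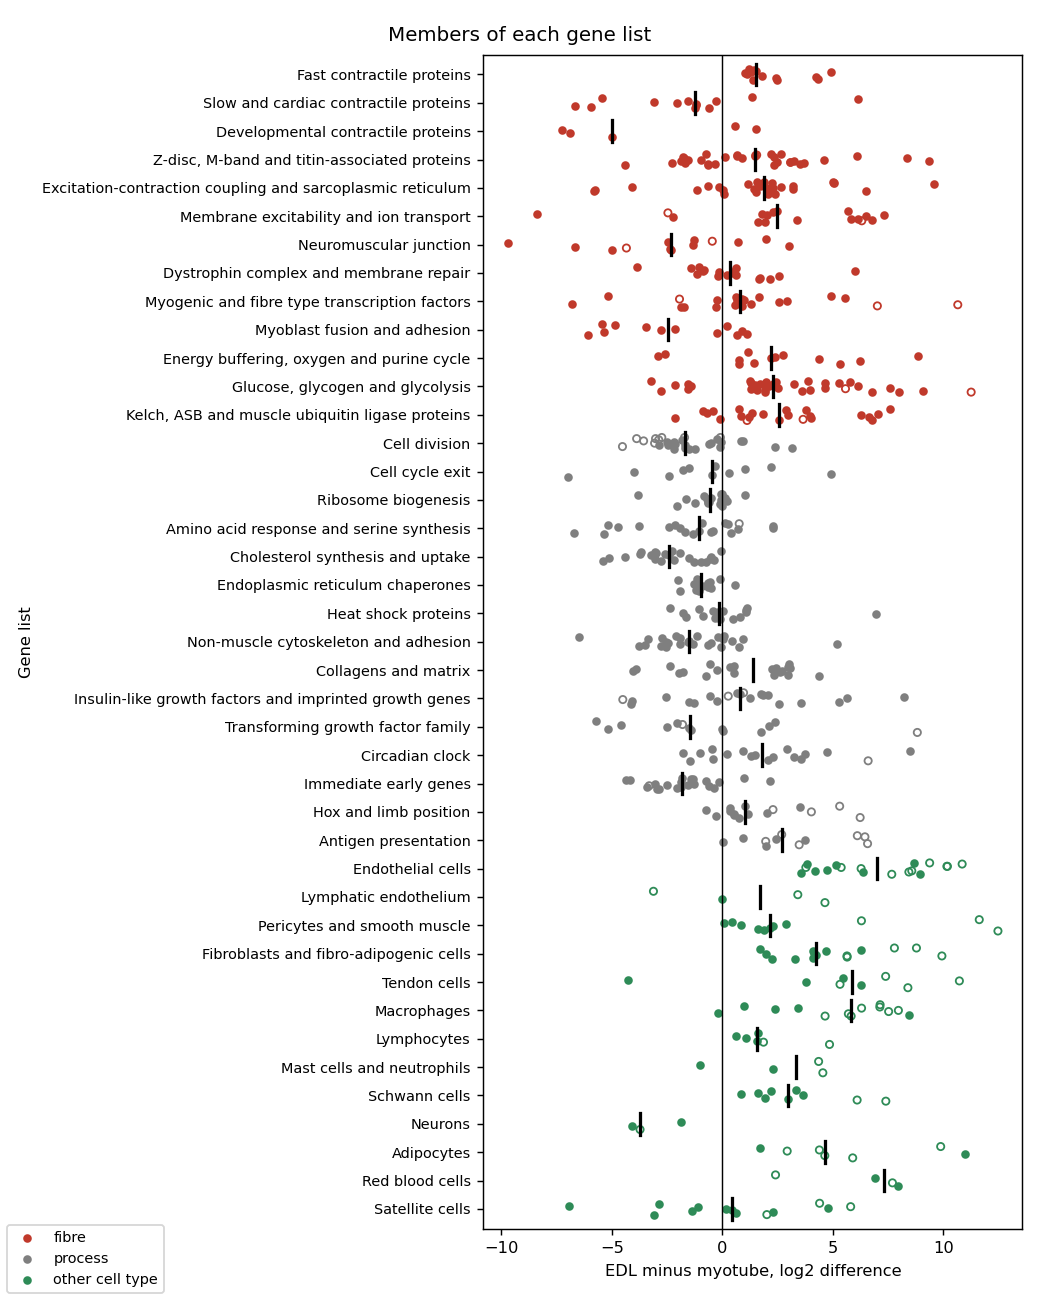
Difference between EDL and myotubes (log2, horizontal axis) for the kept members of 41 gene lists; filled points are well above background on all 6 arrays, open points are not, and bars are medians. Fast contractile genes all lie right of 0 in this scaling (3 of 13 left of it after quantile normalization), cholesterol genes all left of 0, and most markers of other cell types right of 0.

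Markers of cell types other than fibres separated the groups widely. Of 142 listed genes 115 were kept, and 93 of these were called higher and 11 lower. As 30 of the 115 were not above background on any myotube array, and could enter only through EDL, the fairer count is over the 65 that were above background on all 6 arrays: 45 were higher and 9 lower, against 25.7% and 18.4% of such genes overall. In bulk RNA, fewer cells of a type and less RNA per cell cannot be told apart. Of the endothelial markers 18 of 18 were higher, and 8 of the 8 above background on all 6 arrays, with a mean marker level of 11.14 to 11.26 on EDL and 3.78 to 4.39 on myotube arrays. VE-cadherin (Cdh5) was 12.28, 12.25 and 12.01 in EDL and below background in myotubes (at least 420-fold), and Emcn was at least 627-fold higher. Flt1, measured in both, rose by 8.68 (SE 0.10). In myoblasts Flt1 stood at 9.67 ± 0.15, above its myotube level of 5.49 ± 0.10, so the cell line itself can give signal for this marker. Cdh5 (1.53 ± 0.54) and Emcn (1.77 ± 0.68) were low in myoblasts. The pericyte gene Rgs5 was at least 1460-fold higher, yet of 11 pericyte and smooth muscle markers 3 were not called. Several were high in myotubes too, Tagln at 13.13 ± 0.34 and Acta2 at 16.53 ± 0.06, the latter with 1 of 4 probes higher in EDL.

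Fibroblast markers were higher in 15 of 15 cases and in 10 of the 10 above background on all 6 arrays. Decorin (Dcn) rose by 4.71 (SE 0.07), Smoc2 by 6.28 (SE 0.14) and Dpt by at least 91.4-fold. The mean marker levels were 10.88 to 10.94 in EDL and 5.76 to 6.10 in myotubes. In myoblasts Smoc2 stood at 8.67 ± 0.17, above its myotube level of 4.92 ± 0.13, while Dcn (10.33 ± 0.26) and Dpt (0.88 ± 0.15) stood below theirs. The tendon marker Kera was at least 425-fold higher, and Tnmd (by 89.6-fold or more) and Thbs4 (6.28, SE 0.11) were higher. The tendon factor scleraxis (Scx) went the other way, at 15.44, 15.86 and 15.92 in myotubes and 11.32, 11.54 and 11.61 in EDL (-4.25, SE 0.08), and was 14.81 ± 0.29 in myoblasts. Macrophage markers were higher in 11 of 13, but 6 of the 13 were not above background on any myotube array. Of the 5 above background on all 6 arrays 3 were higher. Lysozyme Lyz2 was at 5.13, 4.82 and 5.04 in myotubes against 13.48, 13.43 and 13.51 in EDL (8.47, SE 0.10). Cd163 was at least 80.1-fold higher, but Cd68 (-0.20, SE 0.21) was not called. Of 12 lymphocyte markers 6 were not kept and 5 were higher, Ptprc at least 7.90-fold; only 1 of these stayed called under spike-in scaling. Of 4 kept lymphatic markers 2 were higher and 1 lower, and of 4 kept mast cell and neutrophil markers 3 were higher and 1 lower (the chymase gene Cma1, -1.0).

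Adipocyte markers were higher in 7 of 7, although only 2 were above background on all 6 arrays, Adipoq at least 17.4-fold and Cfd at least 238-fold. Fabp4, shared by fat and capillary endothelium, was 4.10, 4.33 and 7.46 in myotubes, with the third array far above the others, and 16.32, 16.22 and 16.30 in EDL (10.98, SE 0.65). The Schwann cell genes Mbp (7.41, SE 0.05) and S100b (3.66) rose, and Mag (0.84, SE 0.15, negative under spike-in scaling) was not called. Of 8 neuronal genes 5 were not kept, and the others, Stmn2 (-4.10, SE 0.08), Nefm (at least 4.54-fold) and Tubb3 (-1.86), were lower in EDL. In myoblasts they stood at 11.16 ± 0.16, 10.88 ± 0.10 and 12.84 ± 0.11, each above its myotube level, so the cell line itself gave signal for these genes. Alpha-globin Hba-a1 rose by 7.96 and Hba-a2 by 6.92, genes so alike that their probes may share signal, and the erythroid enzyme Alas2 was at least 71.5-fold higher. Satellite cell markers were called in both directions, 5 higher and 5 lower of 13, but 2 of the 13 were not above background on any myotube array. Of the 10 above background on all 6 arrays 2 were higher and 5 lower, against 25.7% and 18.4% of all such genes. Pax7 was 4.99 ± 1.25 in myotubes and 7.0 ± 1.19 in EDL (2.02, SE 0.35), and Chodl was at least 16.6-fold higher. Megf10 (-6.93, SE 0.09), Hes1 (-3.10) and Sdc4 (-2.89) were lower. The part of these cells in the differences of the fibre and process lists was not tested. Among those differences are Abcc9, collagens, antigen presentation, Cav1 and the clock. In the lists of contractile, calcium and glycogen genes the named members stood above background in myotubes except Pln, Slc2a3 (at least 27.6-fold higher) and, on most arrays, Phkg1.

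**Figure D5:**
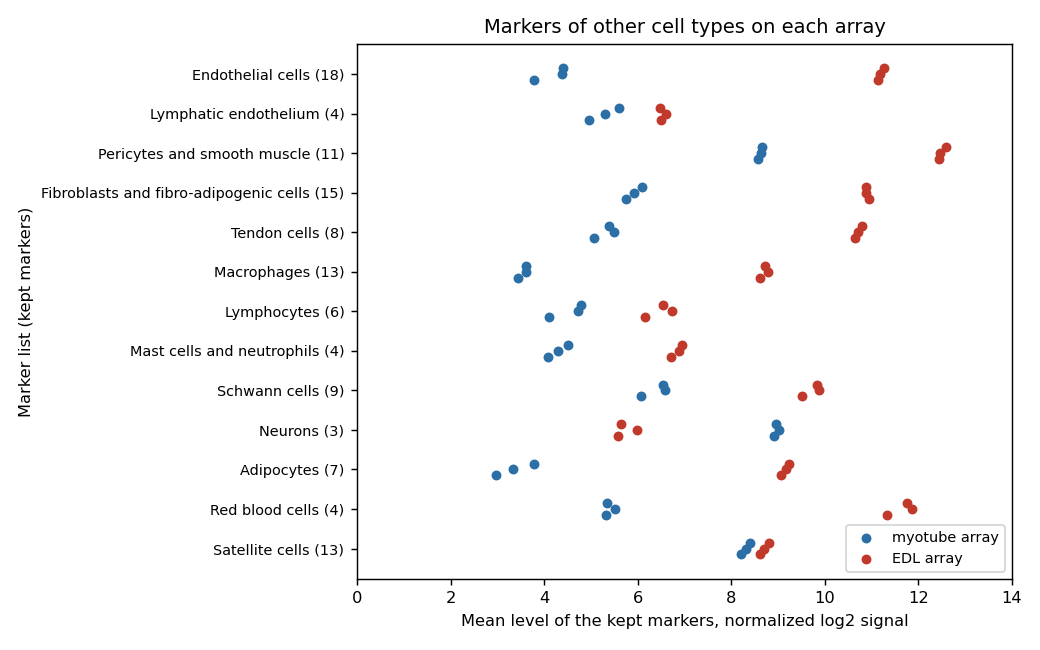
Mean level (normalized log2 signal, horizontal axis) of the kept markers of 13 cell types on each of the 3 myotube and 3 EDL arrays; the number of kept markers is in brackets, and levels of markers below background are included as measured. Endothelial markers lie at 11.14 to 11.26 on EDL and 3.78 to 4.39 on myotube arrays, satellite cell markers at 8.61 to 8.80 and 8.21 to 8.40.

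Over all genes above background on all 6 arrays, the largest rises were those of Fabp4 and Rpl3l, then Cmya5 (myospryn, a costamere protein), Perm1 (a muscle regulator of mitochondrial genes), Mlf1, Pvalb, Ddit4l, Tmod4, Fitm1 and Ppp1r1a. Cmya5 was 6.88, 7.03 and 7.01 in myotubes and 17.54, 17.69 and 17.71 in EDL (10.67, SE 0.07), and Mlf1 was 6.18, 6.22 and 6.10 against 16.26, 16.24 and 16.08 (10.03, SE 0.04, adjusted p = 7e-12). All 10 stood at 13.19 or more in soleus. Among genes not above background on any myotube array, the highest EDL levels after Eef1a2 and Rgs5 were those of Tlcd3b, the glucocorticoid-induced factor Klf15 (at least 774-fold), the vascular potassium channel Kcnj8 (at least 704-fold), the mitochondrial acetyl-CoA synthetase Acss1 (at least 684-fold), Emcn, Tcf15 (at least 610-fold), Zfp612 and Atp8a1. Of the 718 such genes 30 were on a list of another cell type, 5 on a fibre list and 3 on a process list. The kept genes on those lists numbered 115, 246 and 284. Most of the 718 were on no list, so these counts do not give the origin of the set.

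The largest falls after Chrng included those of mesothelin (Msln), Alox5, Dclk1, Frmpd1, Xlr, Gchfr, Tubb2b and Aqp5. Msln was 16.62, 17.04 and 16.87 in myotubes and 7.67, 7.93 and 7.93 in EDL (-9.00, SE 0.06), and Alox5, the leukotriene-forming lipoxygenase, was 15.10, 15.20 and 15.15 against 6.71, 6.68 and 6.83 (-8.41, SE 0.06). These fell into those already high in myoblasts, such as Alox5 (15.22 ± 0.04), Aqp5 (15.1), Gchfr (13.9) and Xlr (13.4), and those far lower there, such as Chrng (11.46 ± 0.11), Frmpd1 (9.90) and Dclk1 (10.3). Among genes not above background on any EDL array, the detoxifying enzyme Gsta2 was 13.67, 13.90 and 13.82 in myotubes (at least 672-fold lower in EDL) and the hormone Fgf21, made by stressed muscle, 12.21, 12.35 and 12.10 (at least 225-fold). The p53 target Pmaip1 (Noxa; at least 355-fold), Sox11 (at least 198-fold) and the deubiquitinase-like gene Otud7a (at least 366-fold) were also in this set, and Otud7a was at 4.06 in myoblasts and 5.41 in soleus against 12.93 in myotubes.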

How the data were processed

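One-colour Agilent microarrays were analysed from the deposited scanner output, whose spot intensity (processed signal) had been background-subtracted and detrended within each array by Agilent Feature Extraction 10.5.1.1, per the file headers, with no normalization between arrays. Flags for spots above background are other deposited values, 0 or 1 per spot, per the file headers. The authors' deposited value table holds processed intensity on a linear scale (array medians 123 to 283) with its normalization unstated; its log2 values served only as an alternative.

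Control and outlier-flagged spots were left out and spots of a probe averaged. Levels are log2 signals minus the array's 75th percentile, plus 9.65. Of 41174 probes, 24375 were named by accession, 6301 by symbol and 2391 by synonym through RefSeq, and 8059 kept the file's name. A probe was kept if well above background on all 3 arrays of either group, and a gene is its kept probe with the highest mean. limma 3.58.1 (R 4.3.3) was fitted to all 12 arrays with 4 group means and slide as a block, two-sided, with Benjamini-Hochberg adjustment. A call needs an adjusted p under 0.05 and a difference of at least 1. A bound ("at least") sets the bright group's mean against the higher, on each array, of the dim probe's value and the lowest signal well above background. The number of arrays limits the precision.

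Same-numbered arrays share a slide; their deviations from group means correlated at 0.31 to 0.43, against -0.31 to 0.08 for other numbers. In simulated data 50 genes were changed at each size, 17411 were left unchanged, and noise was normal and independent. The fit recovered 46 of 50 changed by 1.5, 50 of 50 at 2, 49 of 50 at 3 and 50 of 50 at 5. It called 2 of the 17411 unchanged genes. Far more genes differed in the real data and scaling was not simulated, so these counts are not error rates of the real comparison.

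Members and the 42 gene lists were chosen with earlier results of these data known. Genes named in a list are the up to 5 largest called differences among members above background on all 6 arrays, up to 3 members undetected in the other group, the first uncalled member and up to 3 that moved against the list; over all genes, the 10 most extreme each way. Further genes were named for their role, after their values were seen. Some listed genes are counted in their lists but not reported here by name.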

Additional observations from a re-analysis of the deposited data

How the results depend on the processing

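Spike-in scaling gave 2769 higher and 7752 lower calls, normexp background correction 2835 and 2321, and no minimum difference 8247 and 6776; without a filter on dim probes 8727 were higher. Leaving out arrays gave 4997 to 5090 higher and 3652 to 3778 lower, and the fit with no replicate block 4935 and 3709. Of 262 called genes named here, 257 kept their sign under every alternative that gave them a value, and 224 stayed called under all but spike-in scaling; 227 of the 275 named genes had a value in the strictest filter and 263 in the authors' table. The exceptions were Myl1 (-0.16 with quantile normalization, -0.06 in the authors' table), Mylpf (-0.14 and -0.06), Myh1 (-0.05 with quantile normalization), and Acta2 (-2.73) and Myh8 (-1.88) when probes were averaged. Averaging also gave Ckb -1.47, and spike-in scaling gave Ckb -0.18, Mag -0.10, Tagln -0.07 and Bhlhe41 -0.73 (-0.24 with median scaling). Cd68 was 0.25 with normexp and between -0.47 and 0.13 when arrays were left out; Pmvk was between -0.15 and 0.03 when arrays were left out. List medians turned under spike-in scaling for the dystrophin complex (-0.60; -0.11 with median scaling), myogenic factors (-0.16), growth factors (-0.14) and satellite cells (-0.50; -0.01 with median scaling, -0.46 over genes above background on all 6 arrays), and for neurons without the filter (0.17). The cause of these changes was not tested. Signal over background limits genes dim in either group to bounds.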
